A study of Mus musculus with 6 samples.

Results

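The genes of MHC class I antigen presentation were followed in cells that the study describes as fibroblasts derived from mouse embryonic stem cells. The set holds 10 genes. They are the heavy chains H2-K1 and H2-D1, the light chain B2m, the peptide transporter subunits Tap1 and Tap2, and the loading chaperone Tapbp. The others are the immunoproteasome subunits Psmb8, Psmb9 and Psmb10 and the trimming peptidase Erap1. Members were the probe sets to which the array annotation gives only a symbol of the set. By this rule 7 genes had 19 probe sets, of 17097 genes with a probe set on the array. B2m, Tap1 and Tap2 had none and were not analysed here. RNA of wild-type (WT) cells and of cells in which CD98hc was ablated (CD98hc KO) was hybridised to Affymetrix arrays for the mouse genome, with 3 arrays for each label. CD98hc is the heavy chain of a family of amino acid transporters and is encoded by Slc3a2. Both groups were grown in high-glucose DMEM with serum and β-mercaptoethanol, with no other treatment. The labels give the replicate numbers 1, 3 and 5 in each group and do not say whether these were separate cultures, so the p-values rest on array-to-array spread that may be technical. Mouse strain and the number of clones behind each line are not given in the sources used here.

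MHC class I molecules carry short peptides from inside the cell to its surface, where CD8 T cells read them. Proteins are cut by the proteasome, whose catalytic subunits can be exchanged for those of the immunoproteasome. The TAP transporter then moves the peptides into the endoplasmic reticulum, where ERAP1 trims them and tapasin, the product of Tapbp, helps to load them onto the heavy chain bound to β2-microglobulin. Interferons and NF-kB raise the transcription of most of these genes, and the NLRC5 and RFX proteins act on a shared promoter module of the heavy chains and B2m. Natural killer cells respond to cells that have lost class I. Fibroblasts carry class I on their surface at a moderate level, and pluripotent stem cells carry little of it.

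The arrays labelled KO and WT differed beyond the members. The probe set of Slc3a2, the targeted gene, read 10.64, 10.67 and 10.51 on the arrays labelled WT and 11.65, 11.57 and 11.54 on those labelled KO (log2 values, on which a difference of 1 is 2-fold). It was therefore higher under the KO label, with a log2 fold change of 0.98 ± 0.075 (standard error; limma, adjusted p = 0.000175), which goes against the label. Whether this probe set lies in the exons that were deleted is not known here, and groups are given below as arrays labelled KO or WT. Of 12 fibroblast markers, 6 were lower and 1 was higher under the KO label (18.4% and 21.6% of all genes). Col1a1 was down by a log2 fold change of -5.72, Col3a1 by -6.89 and S100a4 by -7.02. Among the 13 pluripotent stem cell markers with a probe set, 12 were higher, and their median log2 value lay between 4.38 and 4.70 on the arrays labelled WT and between 10.95 and 11.04 on those labelled KO. On the arrays labelled KO, Col3a1 and S100a4, which mark the labelled cell type, lay between 4.13 and 4.92, near the median of the nonspecific probe sets (4.23). This did not hold for all fibroblast markers. Vim was lower (-1.94) but lay between 10.39 and 10.90 there, and Fn1, which did not pass, between 9.82 and 10.39. The marker that was higher was Thy1 (0.37), which lay low under both labels, between 4.49 and 5.10. Of the 12 markers, 5 did not pass. Apart from Fn1, those that did not pass lay between 4.09 and 5.80 on all 6 arrays. Such low values do not show that these transcripts were kept. Pou5f1, Zfp42 and Dppa2, factors of pluripotent cells, lay between 3.88 and 4.94 under the WT label and between 11.11 and 12.07 under the KO label (log2 fold changes 7.23, 7.30 and 7.30). In bulk RNA, fewer cells of a type and less RNA per cell cannot be told apart. Correlations between arrays over all probe sets were 0.991 to 0.994 within a label and 0.911 to 0.92 between labels. The hybridisation controls (18 probe sets) differed by -1.21 on the log2 scale between the replicate 3 arrays and the others.

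Sequence before the start of member genes is shown first, because the heavy chains and B2m are known to share a promoter module. The sequences are from RefSeq (GRCm38.p6), which had a window for 9 of the 10 members and none for Tap2. In each, the 250 bases before the listed start were searched on both strands for the core of the interferon-stimulated response element (GAAANNGAA, found in 7.1% of 32851 promoters), the gamma-activated sequence (TTCNNNGAA, 7.0%), the NF-kB core (GGGNNTTCC, 5.0%), the core of the X2 box and cAMP response elements (TGACG, 17.8%) and the Y box (ATTGG, 33.8%). Capitals mark the matches, including matches read on the opposite strand. The first 3 sequences are H2-D1 at chr17:35262844-35263093 on the plus strand, Tapbp at chr17:33919228-33919477 on the plus strand, and the 225 bases between Psmb9 and Tap1 at chr17:34187331-34187555, read on the minus strand, that of Psmb9. Tapbp is shown because both of its probe sets fell, H2-D1 because 1 of its 5 did, and Psmb9 because 1 of its 3 rose.
H2-D1: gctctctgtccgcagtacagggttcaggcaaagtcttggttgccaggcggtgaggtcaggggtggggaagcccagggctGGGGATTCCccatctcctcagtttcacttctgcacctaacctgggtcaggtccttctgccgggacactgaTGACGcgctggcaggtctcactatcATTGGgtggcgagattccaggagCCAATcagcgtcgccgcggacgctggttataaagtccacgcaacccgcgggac
Tapbp: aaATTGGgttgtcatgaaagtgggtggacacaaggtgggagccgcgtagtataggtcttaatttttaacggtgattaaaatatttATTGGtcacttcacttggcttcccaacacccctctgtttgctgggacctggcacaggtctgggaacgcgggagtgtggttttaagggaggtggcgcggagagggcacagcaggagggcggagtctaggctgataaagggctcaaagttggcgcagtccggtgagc
Psmb9: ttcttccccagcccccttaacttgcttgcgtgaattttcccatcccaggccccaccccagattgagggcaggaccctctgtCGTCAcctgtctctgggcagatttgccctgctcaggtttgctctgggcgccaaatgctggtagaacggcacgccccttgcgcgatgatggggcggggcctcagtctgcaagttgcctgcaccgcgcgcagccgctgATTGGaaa

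The window of H2-D1 held an NF-kB core 171 to 163 bases before the start, a TGACG and both orientations of the Y box. That of Tapbp held 2 Y boxes and none of the other motifs. The stretch between Psmb9 and Tap1 held a TGACG, read here on its other strand, and a Y box. No match was found before Psmb10, and a gamma-activated sequence was found before Psmb8. The core of the interferon-stimulated response element was found before B2m and Erap1. Only the exact letters given above were searched, and other forms of these elements would not be marked. A window without a match, as that of H2-D1 for this core, may therefore still hold such an element.

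The span from TGACG to the Y box was 30 bases in H2-D1, in H2-K1 and in B2m. This spacing was noticed after the matches had been seen. It is shown because it joins the 3 genes whose products form the class I molecule, of which H2-D1 had a probe set that fell, H2-K1 had none and B2m was not analysed here. The stretches lie at chr17:35262993-35263022 on the plus strand for H2-D1, at chr17:34000359-34000388 on the minus strand for H2-K1, and at chr2:122147609-122147638 on the plus strand for B2m. Erap1 is added with the last 30 bases before its listed start, at chr13:74639823-74639852 on the plus strand, where the core of the interferon-stimulated response element was found on the minus strand. The stretches of H2-D1 and B2m lie before the annotated gene, and those of H2-K1 and Erap1 lie inside its span, since other transcripts of these genes start earlier.
H2-D1: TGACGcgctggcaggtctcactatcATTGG
H2-K1: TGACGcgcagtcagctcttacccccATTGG
B2m: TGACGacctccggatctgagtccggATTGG
Erap1: cacgtgccctgccggtccaccTTCACTTTC

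The stretches of H2-D1 and H2-K1 were identical at 13 of the 20 positions between the motifs, while that of B2m matched H2-D1 at 2 and H2-K1 at 3 of them. Over the whole table, 30 of 32851 promoters (0.09%), of 26 genes, held TGACG followed by ATTGG in a 30-base span, and H2-M3 was the only other gene named H2 among them. The NF-kB core GGGGATTCC also stood before both H2-D1 and H2-K1. A match describes letters in these windows and is not evidence of binding.

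Of the 19 probe sets of the members, 5 were lower on the arrays labelled KO, where 16.0% of all 45037 probe sets were lower, and 1 was higher, where 16.8% of all were. The other 13 did not pass an adjusted p under 0.05. The 5 were both probe sets of Tapbp, both of Erap1 and the brightest of H2-D1, and the 1 that rose was of Psmb9. In these 6 the arrays labelled KO did not overlap with those labelled WT. The share of all probe sets that separate in this way was not counted, so the separation is not given as a trait of the members. The median log2 fold change of the 19 was -0.13, against 0.0049 over all probe sets. With each gene taken at its most variable probe set, 3 of 7 genes were lower (18.4% of all genes) and 1 was higher (21.6% of all genes). At this level the median was -0.35, against 0.018 over all genes.

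**Figure D1:**
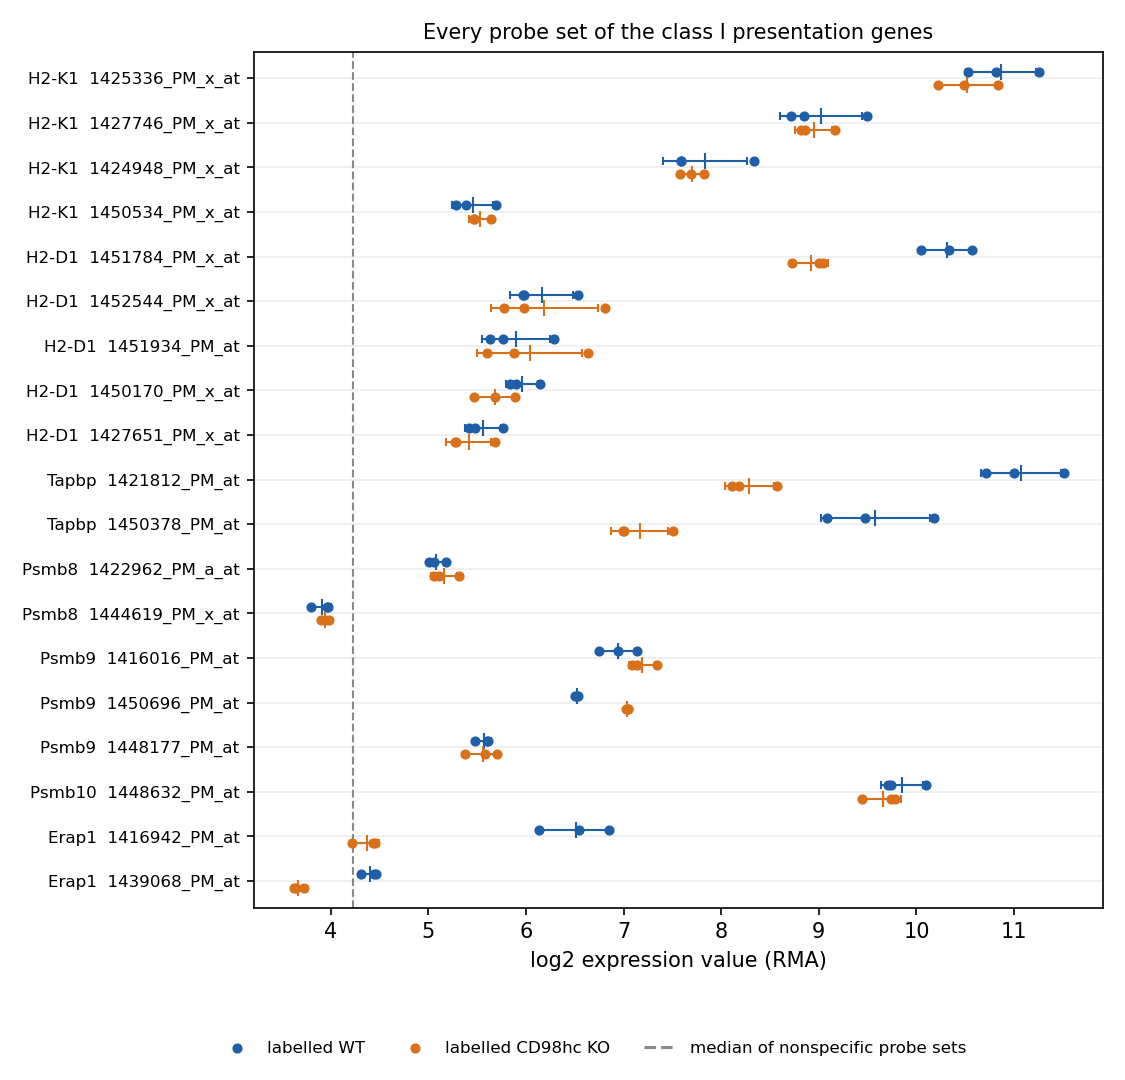
Log2 expression values (x axis) of all 19 probe sets of the members on each of the 6 arrays (points, 3 a label), with the mean (tick) and SD (bar) of each label; the dashed line is the median of the nonspecific probe sets, 4.23. The labels separate for both probe sets of Tapbp and of Erap1 and for 1 of H2-D1 and 1 of Psmb9, and overlap for the other 13. The share of all probe sets whose labels separate was not counted.

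Tapbp encodes tapasin, which bridges the heavy chain and the TAP transporter while peptide is loaded. Its probe set 1421812_PM_at read 10.71, 11.00 and 11.51 on the arrays labelled WT and 8.18, 8.11 and 8.57 on those labelled KO. All arrays labelled KO lay below all arrays labelled WT, and the log2 fold change was -2.78 ± 0.23 (standard error; limma, adjusted p = 0.000228), 6.88-fold lower. The second probe set, 1450378_PM_at, read 9.09, 9.47 and 10.18 on WT-labelled arrays and between 6.99 and 7.51 on KO-labelled ones. It gave -2.41 (standard error 0.29, adjusted p = 0.00121 from limma), so the separate probe sets of this gene fell together.

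Erap1 encodes the aminopeptidase that trims peptides to the length class I binds. Probe set 1416942_PM_at read 6.14, 6.55 and 6.85 on the arrays labelled WT and 4.43, 4.45 and 4.22 on those labelled KO, a log2 fold change of -2.14 ± 0.18 (standard error; limma, adjusted p = 0.000275). Under the KO label it stood close to the median of the nonspecific probe sets on the same arrays (4.20 to 4.27), so the fall is limited by background and its size was not measured. Probe set 1439068_PM_at read 4.31, 4.44 and 4.46 on WT-labelled arrays and 3.63, 3.73 and 3.64 on KO-labelled ones, with a log2 fold change of -0.74 ± 0.074 (standard error; limma, adjusted p = 0.000528). Its arrays did not overlap either, but its values lay close to that median under the WT label and below it under the KO label, so the size of its change was not measured either.

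H2-K1 and H2-D1 encode the classical heavy chains, which present peptides to CD8 T cells. Their sequences are close, and 8 of their 9 probe sets carry the suffix that marks probes able to bind other transcripts. For H2-D1, probe set 1451784_PM_x_at read 10.332, 10.048 and 10.570 on the arrays labelled WT and 8.720, 8.997 and 9.046 on those labelled KO. The groups were apart, with a log2 fold change of -1.40 ± 0.16 (standard error; limma, adjusted p = 0.000822), 2.63-fold lower. The other 4 probe sets of H2-D1 did not pass, with log2 fold changes from -0.28 to 0.14 and adjusted p from 0.177 to 0.964. They were much dimmer, between 5.28 and 6.81 over the arrays of both labels. Of these, 1452544_PM_x_at, 1451934_PM_at and 1427651_PM_x_at were highest on the replicate 3 array under each label. They exceeded the mean of replicates 1 and 5 there by 0.56, 0.59 and 0.32 on the log2 scale under the WT label, and by 0.93, 0.90 and 0.40 under the KO label. The probe sets of H2-D1 thus disagreed, and the mean over all 5 gave -0.33 (standard error 0.16, adjusted p = 0.156 from limma over genes), which did not pass. That mean gives the 4 dim probe sets the same weight as the bright one.

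None of the 4 probe sets of H2-K1 passed. The brightest, 1425336_PM_x_at, read 10.53, 10.82 and 11.25 on the arrays labelled WT and 10.22, 10.83 and 10.49 on those labelled KO. These ranges overlapped, and the log2 fold change of -0.35 had a 95% interval from -0.89 to 0.19 (adjusted p = 0.307 from limma). The others gave -0.07, -0.13 and 0.07, with intervals that together reached from -0.65 to 0.45. The change of the brightest H2-D1 probe set was 1.04 below that of the brightest H2-K1 probe set (difference of log2 fold changes -1.04, standard error 0.21). The exact two-sided permutation test over arrays gave p = 0.1, the smallest value that 3 against 3 arrays allow.

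A further 5 probe sets carried the symbols of H2-K1, of H2-D1 and of LOC547349 together, and could not be given to either gene. Of these, 4 were lower on the arrays labelled KO, where 16.0% of all probe sets were lower. Their log2 fold changes ran from -1.36 to -1.57, with adjusted p from 0.00029 to 0.0011 by limma. The groups did not overlap in any of the 4, and the share of all probe sets that separate was not counted. For example, 1426324_PM_at read 9.42, 9.12 and 9.57 on WT-labelled arrays and 7.74, 7.94 and 7.90 on KO-labelled ones. The fifth, 1425614_PM_x_at, gave 0.04 (95% interval from -0.53 to 0.62). Lower were thus 1 of 5 probe sets named for H2-D1, 4 of 5 shared ones and 0 of 4 named for H2-K1, beside 16.0% of all. Of the 4 named for H2-K1, limma also gave 0 an unadjusted p under 0.05.

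**Figure D2:**
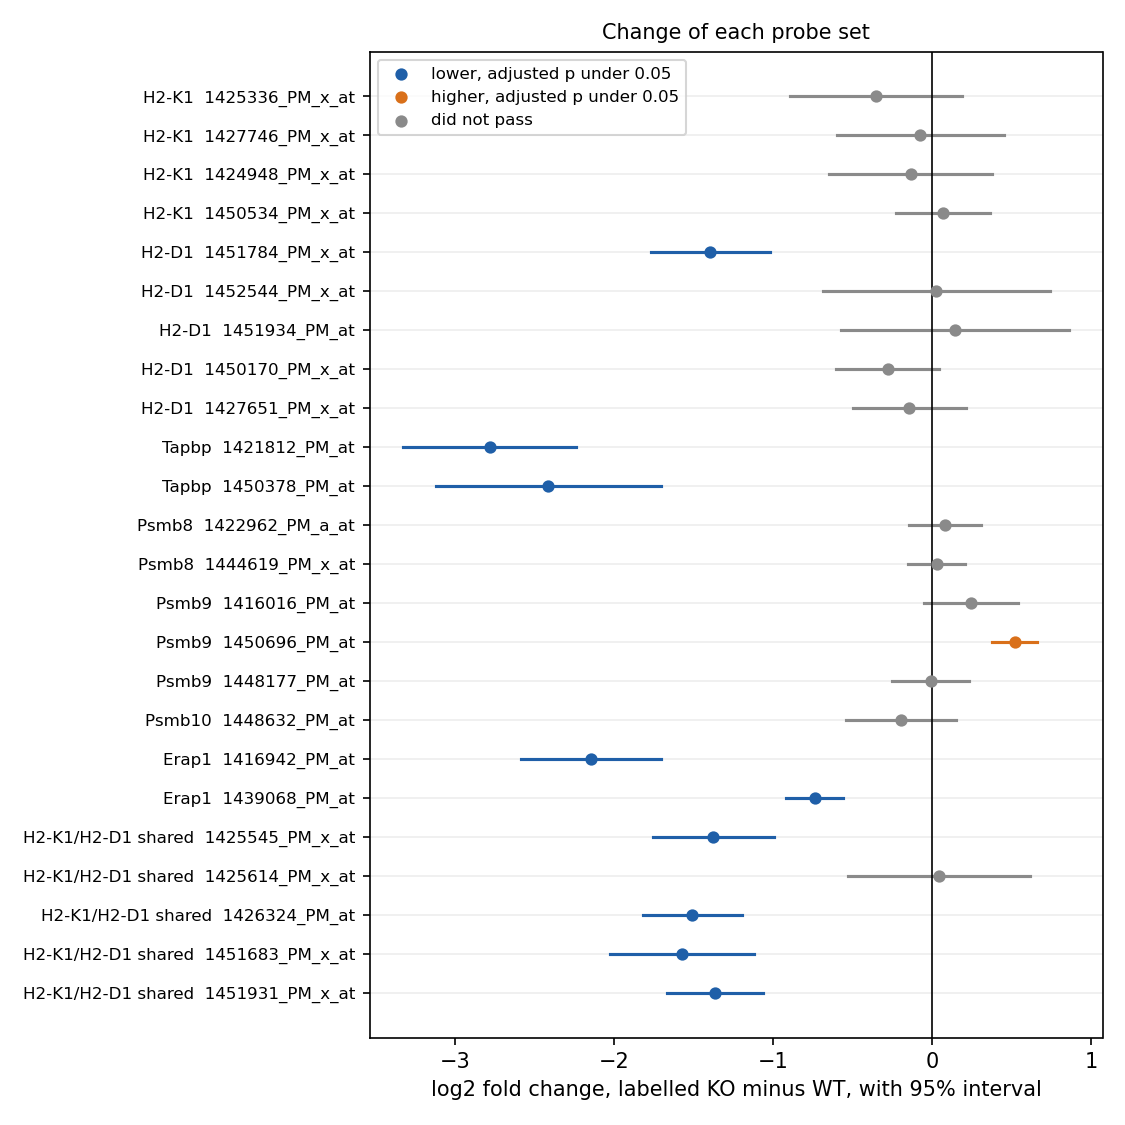
Log2 fold change, arrays labelled KO minus WT (x axis), of the 19 probe sets of the members and of the 5 that carry H2-K1, H2-D1 and LOC547349 together; points are estimates from 3 arrays a label and bars 95% intervals from limma. Tapbp, Erap1, 1 probe set of H2-D1 and 4 of the shared probe sets lie below 0, and 1 probe set of Psmb9 lies above it.

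Of the 6 probe sets of the immunoproteasome, none was lower and 1 was higher on the arrays labelled KO, a share near the 16.8% of all probe sets. Psmb9 encodes the β1i subunit, and its probe set 1450696_PM_at read 6.52, 6.53 and 6.50 on the arrays labelled WT and 7.04, 7.02 and 7.05 on those labelled KO. The spread within a label was small (SD 0.014 and 0.011, n = 3 each), and the log2 fold change was 0.52 ± 0.059 (standard error; limma, adjusted p = 0.000881), 1.43-fold higher. The other probe sets of Psmb9 did not pass. Probe set 1416016_PM_at read 6.94, 6.75 and 7.14 on WT-labelled arrays and 7.34, 7.09 and 7.14 on KO-labelled ones (log2 fold change 0.24, 95% interval from -0.05 to 0.54). Probe set 1448177_PM_at gave -0.01 (95% interval from -0.25 to 0.23). The difference in log2 fold change between 1450696_PM_at and these was 0.27 (exact two-sided permutation p = 0.2) and 0.53 (exact p = 0.1), where 0.1 is the smallest possible.

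Psmb8 encodes the β5i subunit. Its probe set 1422962_PM_a_at read 5.06, 5.18 and 5.01 on the arrays labelled WT and 5.06, 5.11 and 5.32 on those labelled KO, with a log2 fold change of 0.08 (95% interval from -0.15 to 0.31, adjusted p = 0.601 from limma). The other, 1444619_PM_x_at, gave 0.03 and was the only member probe set below the median of the nonspecific probe sets on all 6 arrays. Psmb10, the β2i subunit, had a mean of 9.85 (SD 0.22, n = 3) on WT-labelled arrays and of 9.65 (SD 0.19, n = 3) on KO-labelled ones. Its ranges overlapped, with a log2 fold change of -0.20 (95% interval from -0.54 to 0.15, adjusted p = 0.38 from limma). The subunits that these replace in the constitutive proteasome did not pass either, with log2 fold changes of 0.16 for Psmb5, 0.12 for Psmb6 and 0.01 for Psmb7. Of 4 measured genes for the proteasome activator and assembly, Psme2, a subunit of the interferon-inducible PA28 activator, was lower at -0.82 (adjusted p = 0.0155 from limma), a call lost with the arrays of replicates 1 and 5 alone (adjusted p = 0.0975). Its partner Psme1 gave -0.38 (95% interval from -0.72 to -0.03, adjusted p = 0.0945).

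Around the members, lists of class I pathway genes outside the set held 83 genes, of which 68 were measured. On the arrays labelled KO, 26 of the 68 were lower and 9 higher (18.4% and 21.6% of all genes), 33 did not pass, and their median change was -0.083 (log2). The fibroblast and stem cell markers given above moved with the same labels, and their part in these changes was not tested.

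Other class I heavy chains, mostly non-classical molecules of the T, Q and M regions, were next. Of 12 measured, 3 were lower and 3 higher, beside 18.4% and 21.6% of all genes, with a median of 0.013. H2-T10, which encodes a ligand of γδ T cells, read 9.65, 9.58 and 9.96 on the arrays labelled WT and 5.40, 5.31 and 5.26 on those labelled KO, a log2 fold change of -4.41 ± 0.11 (standard error; limma, adjusted p = 3.43e-06). H2-T23, which encodes Qa-1, fell by 1.97 on the log2 scale (adjusted p = 0.000524). H2-M3, which presents formylated peptides and shares the spaced motif pair of the classical genes, fell by 1.29 (adjusted p = 0.00522). Against these, H2-Q4 rose from 3.93, 4.11 and 4.11 under the WT label to 6.33, 6.27 and 5.62 under the KO label (log2 fold change 2.02, adjusted p = 0.000454), with H2-Q5 at 0.89 and H2-Q10 at 0.79. Under the WT label H2-Q4 lay below the nonspecific median (4.23). H2-Q5 (4.42 to 4.56) and H2-Q10 (4.17 to 4.46) lay near it there, so the sizes of these rises were not measured. Heavy chain probe sets can also bind transcripts of near-identical genes of the region, so the gene behind each of these values is uncertain.

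Of 5 class I-related molecules encoded elsewhere, 3 were lower and 1 was higher (18.4% and 21.6% of all genes). Procr, the endothelial protein C receptor, gave a log2 fold change of -1.54. Fcgrt, the neonatal Fc receptor, gave -1.51 (adjusted p = 0.0191 from limma). Its call was lost in several alternatives, among them replicates 1 and 5 alone (adjusted p = 0.13) and without WT replicate 3 (0.0681). Hfe, the regulator of iron uptake, gave -0.92. It lay between 4.28 and 4.37 under the KO label, near the nonspecific median (4.23), so the size of its fall was not measured. The lipid-presenting molecule Cd1d1 read 4.79, 4.92 and 5.03 on the arrays labelled WT and 7.24, 7.27 and 7.10 on those labelled KO, a log2 fold change of 2.29 ± 0.089 (standard error; limma, adjusted p = 1.28e-05).

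In the endoplasmic reticulum, 3 of 9 measured folding and quality control genes were lower and none was higher, with a median of -0.30. Of all genes, 18.4% were lower and 21.6% higher. The 3 are named next. They were Uggt1 (log2 fold change -0.54), a sensor of glycoprotein folding, Tapbpl (-0.53), the tapasin-related peptide editor, and Bcap31 (-0.37), an export factor. Calreticulin and calnexin, general folding chaperones of the endoplasmic reticulum, gave -0.08 for Calr and -0.09 for Canx and did not pass. Among 7 other peptidases that act on class I peptides, Nrd1 was lower at -0.43, while Blmh (1.02) and Lap3 (0.59) were higher. The log2 fold change of Tapbp (-2.78) was larger in size than that of any of these genes, a difference that was not tested. The calls of Bcap31, Uggt1 and Lap3 were each lost in at least 1 fit with an array left out.

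**Figure D3:**
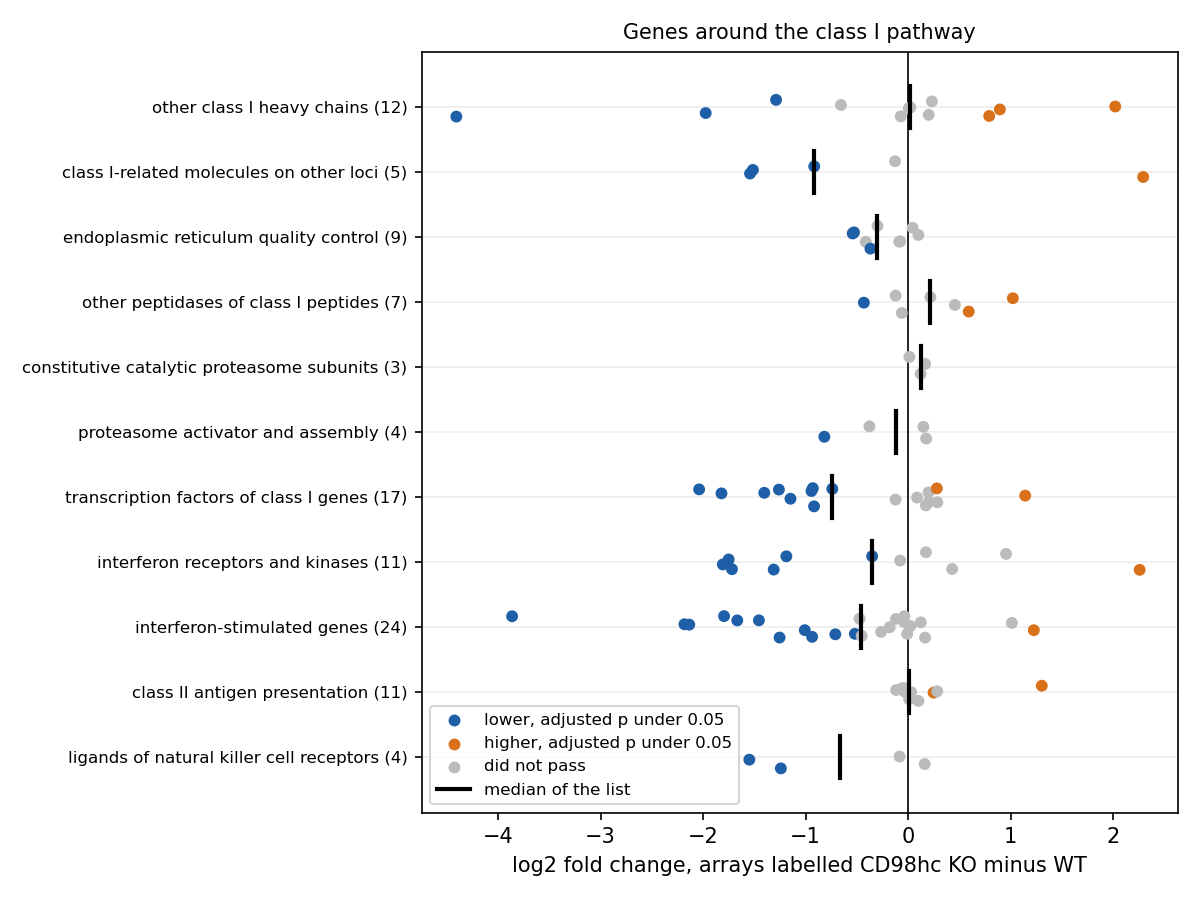
Log2 fold change, arrays labelled KO minus WT (x axis), of each measured gene (points, its most variable probe set) in 11 lists around the class I pathway, with the number of genes measured in brackets and the median of each list as a black bar. Genes of transcription factors, interferon receptors and interferon-stimulated genes spread mostly to the left, with medians of -0.74, -0.35 and -0.46, while the medians for class II and other heavy chains lie near 0.

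Among 17 measured transcription factors of class I genes, 9 were lower and 2 higher (18.4% and 21.6% of all genes), with a median of -0.74. The NF-kB subunits Nfkb2 (log2 fold change -2.04), Rela (-1.40) and Relb (-1.26) were lower, and Rela read 10.26, 10.07 and 10.15 on the arrays labelled WT and 8.75, 8.62 and 8.90 on those labelled KO. Irf1, an activator of class I genes, read 9.11, 9.43 and 10.20 on WT-labelled arrays and 7.42, 7.90 and 7.95 on KO-labelled ones. Its log2 fold change was -1.82 ± 0.29 (standard error; limma, adjusted p = 0.00395), and Irf2 gave -1.15. Rfx5, the DNA-binding subunit of the RFX complex, read 9.21, 9.59 and 9.24 on WT-labelled arrays and 8.36, 8.80 and 8.06 on KO-labelled ones (log2 fold change -0.94, adjusted p = 0.0132). The groups were apart for each of these factors. Irf2 lay between 3.92 and 4.07 under the KO label, below the nonspecific median (4.23), so the size of its fall was not measured. Nlrc5, the class I transactivator, read 4.15, 4.21 and 4.04 on WT-labelled arrays and 3.96, 4.03 and 4.04 on KO-labelled ones, close to the nonspecific median, with a log2 fold change of -0.12 (95% interval from -0.30 to 0.05, adjusted p = 0.267). Nfyb, a Y box binding subunit, was higher at 1.14, whereas its partner Nfya was lower at -0.92 (adjusted p = 0.0333, and 0.0998 without CD98hc KO replicate 1). Nfkb1 was not analysed here.

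Of 11 interferon receptors, kinases and their regulators, 6 were lower and 1 was higher (18.4% and 21.6% of all genes). Both chains of the interferon γ receptor were lower, Ifngr2 with a log2 fold change of -1.81 ± 0.12 (standard error; limma, adjusted p = 9.24e-05) and Ifngr1 with -1.72. Their kinases Jak2 (-1.75) and Jak1 (-1.31) were lower too, and Jak1 read 10.30, 10.33 and 10.33 on WT-labelled arrays and between 8.93 and 9.09 on KO-labelled ones. The chains of the type I receptor gave -1.19 for Ifnar2 and -0.35 for Ifnar1, calls that were lost with single arrays left out (adjusted p up to 0.0538 and 0.134). Ifnar2 lay between 4.10 and 4.60 under the KO label, near the nonspecific median (4.23), so the size of its fall was not measured. Socs3, which restrains JAK kinases, was higher at 2.26 (adjusted p = 0.00535, and 0.0603 with the arrays of replicates 1 and 5 alone).

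**Figure D4:**
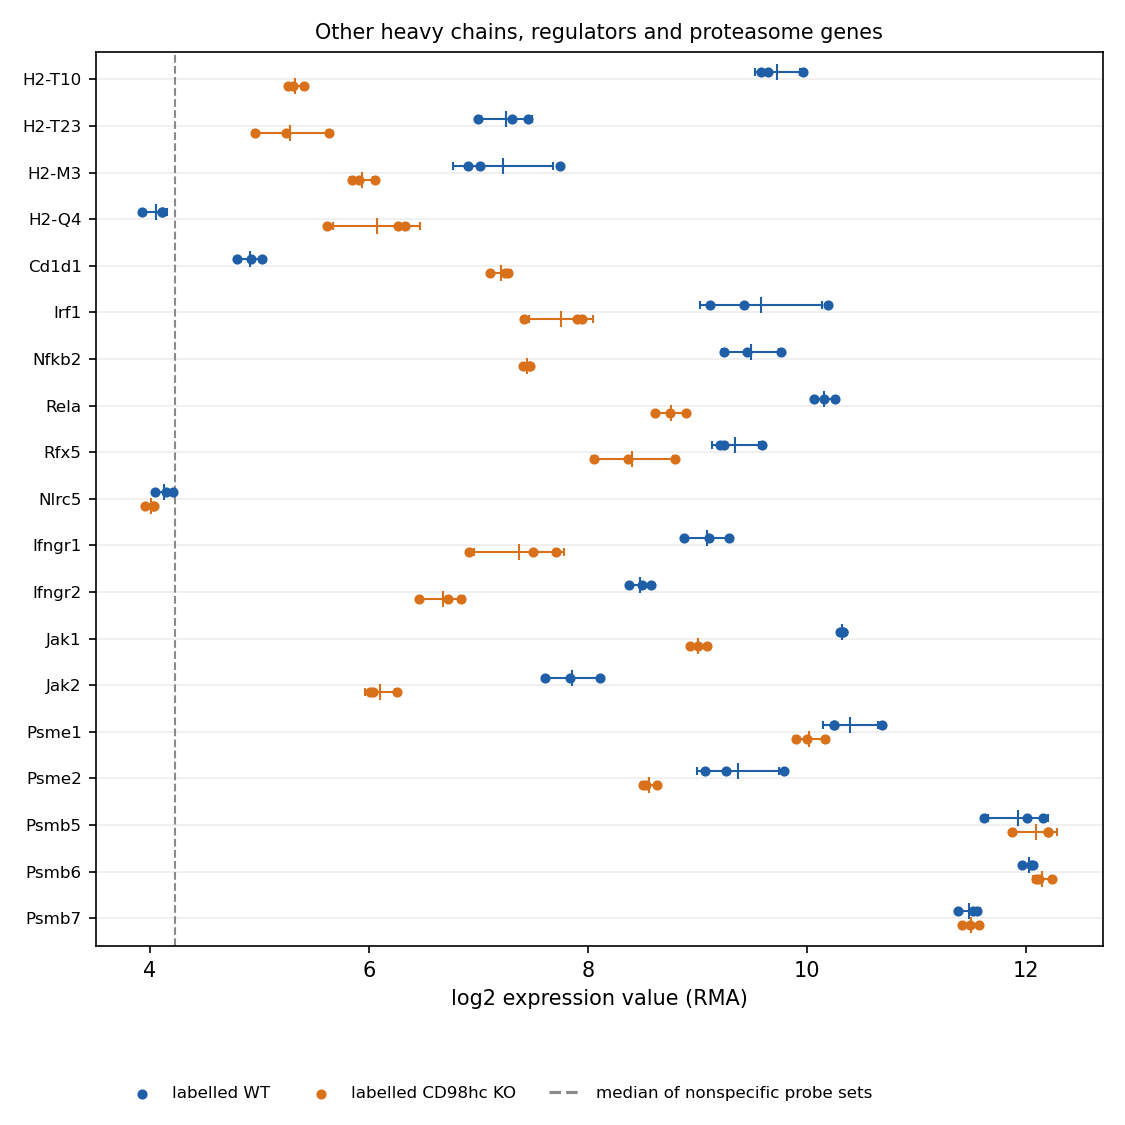
Log2 expression values (x axis) on each of the 6 arrays (points, 3 a label, with mean and SD) for other heavy chains, Cd1d1, regulators of class I transcription and proteasome genes; the dashed line is the median of the nonspecific probe sets, 4.23. Nfkb2, Rela, Irf1, Rfx5, the interferon γ receptor chains and their kinases are lower under the KO label, Nlrc5 lies near the dashed line under both labels, and Psmb5, Psmb6 and Psmb7 did not pass.

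Interferon-stimulated genes outside antigen presentation were counted separately. Of 24 measured, 11 were lower and 1 was higher (18.4% and 21.6% of all genes), with a median of -0.46. The antiviral gene Ifit2 read 7.99, 8.19 and 8.14 on the arrays labelled WT and 4.34, 4.18 and 4.22 on those labelled KO (log2 fold change -3.86, adjusted p = 2.13e-06 from limma). Its values under the KO label stood close to the nonspecific median (4.23), so the size of its fall was not measured. Rtp4 gave -2.18 and Ifi35 -2.13, while Trim25, an ubiquitin ligase of the RIG-I pathway, was higher at 1.22. Rtp4 lay between 4.385 and 4.779 under the KO label, near that median, so the size of its fall was not measured either. The other 12 did not pass.

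Of 11 measured genes of class II antigen presentation, none was lower and 2 were higher (18.4% and 21.6% of all genes). H2-Ab1, a class II β chain, gave 1.30 and H2-DMa, a peptide editor, 0.25 (adjusted p = 0.0308, and from 0.0564 to 0.0856 with an array left out), and the median was 0.0085. H2-Ab1 lay between 4.54 and 4.76 under the WT label, near the nonspecific median (4.23), so the size of its rise was not measured. Of 4 measured ligands of natural killer cell receptors, Pvr (-1.55) and H60b (-1.24) were lower. Markers of leukocytes, which express class I and in some types class II, were also read. The median of 11 leukocyte markers was 4.43 to 4.53 on the arrays labelled WT and 4.56 to 4.65 on those labelled KO, and their defining marker Ptprc lay between 3.58 and 3.95. Of these markers Cd14 was lower (-1.22) and Laptm5 (3.42) and Cd3e (0.33) were higher. Cd3e lay between 4.23 and 4.65 on all 6 arrays, so its call rests on values near background. Laptm5, a lysosomal protein of blood cells, lay between 4.98 and 5.19 under the WT label and was at least 7.68 on each array under the KO label. The part of other cell types in the results was not tested. Of 6 endothelial markers, Pecam1 (0.70), Kdr (0.66) and Eng (0.65) were higher, with the call of Kdr lost without WT replicate 1 (adjusted p = 0.0553), without WT replicate 5 (0.0505) and with replicates 1 and 5 alone (0.0606).

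The mean profile of the 7 member genes over the 6 arrays, each gene centred on its own mean, was 0.27, 0.40 and 0.67 on the arrays labelled WT and -0.52, -0.45 and -0.38 on those labelled KO (log2 scale). The genes outside all lists with the nearest profile were Pde6d (Euclidean distance 0.0946 over 6 arrays), Plekhf1 (0.141), Faf2 (0.147), Fam110a (0.147) and Mylk (0.171). All 5 were lower under the KO label, by log2 fold changes from -0.92 to -0.85. This direction and size follow from their choice by nearness to the profile and are not a separate result. The members themselves lay farther from their mean profile, from 0.695 for H2-D1 to 2.35 for Tapbp, so the mean describes none of them closely.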

How the data were processed

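Values were used as the authors deposited them: log2 expression values per probe set, made by RMA (named in the labels) with background correction and summarisation in affyPLM per the study's methods. RMA puts arrays on a shared scale, and RNA was amplified before labelling, so values are relative and low values sit on background. The number of arrays (3 a label) limits the precision. The study's model has the scan batch as a term; the labels do not give it, so no covariate was fitted. Of 45141 probe sets, 104 array controls were left out. Of the remaining 45037, the platform annotation gave 1 symbol to 28898, several to 551 and none to 15588; 28689 matched a RefSeq gene table by identifier, which changed 0 symbols. The 23 nonspecific probe sets had means from 3.28 to 8.32, and 4 of the 19 member probe sets exceeded the highest on all 6 arrays.

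With limma 3.58.1 in R 4.3.3, lmFit and eBayes were run on all 45037 probe sets, arrays labelled KO minus WT, with Benjamini-Hochberg adjustment over them. The threshold was an adjusted p under 0.05, and no minimum fold was set. Lists were counted by the most variable probe set of each gene, with p from the same fit. The calculation was tested on simulated data. The members and the gene lists, written from textbook knowledge, were chosen with earlier results of these data known. Named were all members, Slc3a2, up to 3 passing genes with the largest changes in each list, Nlrc5, Irf1, Rfx5, Psmb5, Psmb6 and Psmb7, and the 5 genes outside all lists nearest to the mean member profile (predicted genes left out). A further gene of this rule is not reported here. Chosen after their values were seen were Ifngr1, Ifnar1, Ifnar2, Jak1, Relb, Irf2, Nfya, Nfyb, Nfkb1, Hfe, H2-M3, H2-Q5, H2-Q10, Psme1, Calr, Canx, Trim25 and Ptprc, the 30-base motif spacing and the tests between probe sets. Sequences and positions were from RefSeq tables (GRCm38.p6). Alternatives were the replicate number as a block, a covariate for the replicate 3 arrays, the arrays of replicates 1 and 5 alone, each array left out, median-centred or quantile-normalised arrays, removal of probe sets with a mean log2 value under 5, another variance model, the choice or mean of probe sets, and a 2-fold limit. Plots used Python 3.11.15 and matplotlib 3.10.9.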

Additional observations from a re-analysis of the deposited data

How the results depend on the processing

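The 6 member probe sets that passed kept their direction and stayed under the threshold in every alternative that gave them a value: 70 of 70 values for the 5 lower ones (adjusted p from 3.01e-05 to 0.0248) and 14 of 14 for the higher one (0.000641 to 0.0115). Among the 13 that did not pass, 156 of 175 values kept their sign, 19 changed it, and none passed. With only replicates 1 and 5, the sign turned for 1444619_PM_x_at (-0.0272), 1448177_PM_at (0.0376), 1450534_PM_x_at (-0.0251) and 1452544_PM_x_at (-0.0964). With median-centred arrays it turned for 1444619_PM_x_at (-0.0482), 1450534_PM_x_at (-0.00595) and 1452544_PM_x_at (-0.0500), and with quantile normalisation for 1452544_PM_x_at (-0.0168). With each array left out, values ranged from -0.260 to 0.114 for 1424948_PM_x_at, from -0.226 to 0.164 for 1427746_PM_x_at, from -0.0268 to 0.0561 for 1444619_PM_x_at, from -0.0856 to 0.0790 for 1448177_PM_at, from -0.0134 to 0.190 for 1450534_PM_x_at, from -0.155 to 0.363 for 1451934_PM_at and from -0.282 to 0.234 for 1452544_PM_x_at. The cause was not tested.

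Counting 1 value a gene in place of 19 probe sets left 3 of 7 genes lower by the most variable or the brightest probe set and 2 of 7 by the mean of probe sets, where H2-D1 did not pass. By the brightest probe set, 0 of 7 were higher, as limma called the Psmb9 probe set 1416016_PM_at at neither an adjusted nor an unadjusted p under 0.05. With a 2-fold limit, 4 member probe sets were lower and 0 of 19 higher, since the change of the Psmb9 probe set was under 2-fold, and the pathway genes outside the members went from 26 lower and 9 higher to 15 and 5. Each array left out gave 20 to 27 lower and 7 to 9 higher pathway genes.

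Of 53 genes named outside the members that passed (Slc3a2 and markers included), 11 lost the call in 51 of 783 values and none changed sign: H2-DMa, Ifnar1, Lap3, Bcap31, Fcgrt, Kdr, Nfya, Ifnar2, Uggt1, Socs3 and Psme2. Of the 8 that did not pass, Psme1 passed with the block (-0.38, adjusted p = 0.0246). The sign turned for Psmb7 with only replicates 1 and 5 (-0.00275), median-centred arrays (-0.0654) and quantile normalisation (-0.0171). With each array left out, values ranged from -0.042 to 0.0504 for Psmb7, from -0.279 to 0.117 for Calr and from -0.143 to 0.0122 for Ptprc.

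With the replicate number as a block, 5 member probe sets were lower and 1 higher, and 27 and 11 pathway genes. Deviations of same-numbered arrays correlated at 0.057, 0.558 and 0.152 (other pairs from -0.394 to 0.31), and 3 of 6 arrays were closest to their own number, so the numbers were not taken to pair the samples.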
